A study of Mus musculus with 9 samples.

Results

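The MS4A genes of macrophages were followed in mouse liver: Ms4a4a, Ms4a4b, Ms4a4c, Ms4a4d, Ms4a6b, Ms4a6c, Ms4a6d and Ms4a7. They were chosen by name, and all 8 were found among the 35275 entries of the gene table. Liver RNA came from C57BL/6 mice given AdipoRonPEG5, a PEGylated analog of AdipoRon, given AdipoRon, a synthetic compound that activates receptors for adiponectin, or given PBS as vehicle. Each group held 3 libraries, and the comparison was of what the compounds do in the liver. The labels name 1 dose, 5 mg/kg in 2 daily injections over 5 days, for PBS and compounds alike, which leaves the true dose unsure. Genotype beyond the strain, diet, sex and age are not stated in the labels. Nor is it stated that each library is its own animal, so p-values measure only the spread between these libraries.

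MS4A proteins cross the cell membrane 4 times in the pattern of CD20, the B cell protein encoded by Ms4a1, the founding member of the family. In the mouse the family sits in a gene cluster and has multiplied there into the Ms4a4 and Ms4a6 groups, which the human genome holds in smaller number. Several members are transcripts of monocytes and macrophages. Ms4a4a partners the beta-glucan receptor dectin-1 on macrophages, and human MS4A4A and MS4A6A are linked to the microglial receptor TREM2. Ms4a4b and Ms4a6b are also known from mouse T cells, so that the family is not a marker of macrophages alone. In bulk liver RNA, more cells of a type and more RNA per cell cannot be told apart.

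Vehicle 1 was the deepest library, at 39473195 counts, and the other 8 held 13942322 to 18508950. The hepatocyte markers that define the tissue were abundant, with Alb (albumin) at 44190 to 60970 CPM (counts scaled to library size by the TMM method). Vehicle 3 and AdipoRonPEG5 1 stood apart from the other 7 libraries in Saa1, an acute phase gene, at 4955 and 1951 CPM against 45.0 to 496 CPM. Results below were therefore recomputed without these libraries. All MS4A members were rare transcripts: their 8 counts summed to 213, 266 and 226 in AdipoRonPEG5, 269, 177 and 144 in AdipoRon, and 218, 89 and 65 in vehicle livers. A floor of 3 counts lay between 0.076 and 0.215 CPM, so that differences between the scarcest members rest on few counts.

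RefSeq start-site windows (GRCm38.p6, 250 bases before to 50 after the start) were available for 7 of the 8 members. A pair of Ms4a6 genes and a pair of Ms4a4 genes are shown, because within each pair the windows are alike while the results of the tests below differ or cannot be had for both. Each sequence runs 5′ to 3′ on the gene's strand, and capitals mark GGAAGT or its reverse complement, the core that ETS factors such as PU.1 recognise.
Ms4a6c (chr19:11469118-11469417, + strand): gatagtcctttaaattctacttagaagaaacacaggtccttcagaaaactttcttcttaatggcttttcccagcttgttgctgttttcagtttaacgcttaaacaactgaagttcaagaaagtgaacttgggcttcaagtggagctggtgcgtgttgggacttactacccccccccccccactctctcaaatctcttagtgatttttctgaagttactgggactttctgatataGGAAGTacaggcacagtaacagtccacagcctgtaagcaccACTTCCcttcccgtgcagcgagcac
Ms4a6b (chr19:11518309-11518608, + strand): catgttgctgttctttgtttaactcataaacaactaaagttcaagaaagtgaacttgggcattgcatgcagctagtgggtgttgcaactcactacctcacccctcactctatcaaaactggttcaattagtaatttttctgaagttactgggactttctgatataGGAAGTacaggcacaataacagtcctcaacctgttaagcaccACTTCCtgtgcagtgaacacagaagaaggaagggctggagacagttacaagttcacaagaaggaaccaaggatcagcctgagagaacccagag
Ms4a4c (chr19:11407411-11407710, + strand): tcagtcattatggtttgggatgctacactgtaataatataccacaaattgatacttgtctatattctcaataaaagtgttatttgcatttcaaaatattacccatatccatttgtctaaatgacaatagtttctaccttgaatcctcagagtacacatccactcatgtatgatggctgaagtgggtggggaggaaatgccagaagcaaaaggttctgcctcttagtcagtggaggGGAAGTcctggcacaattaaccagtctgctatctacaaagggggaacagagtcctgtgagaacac
Ms4a4b (chr19:11443308-11443607, + strand): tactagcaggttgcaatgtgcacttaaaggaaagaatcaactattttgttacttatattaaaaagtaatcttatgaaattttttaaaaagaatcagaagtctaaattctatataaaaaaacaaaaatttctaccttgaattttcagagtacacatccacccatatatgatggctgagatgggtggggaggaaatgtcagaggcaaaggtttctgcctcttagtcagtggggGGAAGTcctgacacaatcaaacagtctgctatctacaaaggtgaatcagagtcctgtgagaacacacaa
The Ms4a6c and Ms4a6b windows share an identical run of 48 bases that holds this core. This shared core begins 16 bases before the start of Ms4a6c and 85 bases before that of Ms4a6b, and each window has another match. The core begins 15 bases before the start of Ms4a4c and 19 bases before that of Ms4a4b. The Ms4a4 pair shares 20 identical bases, and both windows also hold GAGGAA, a PU.1 core, beginning 61 and 64 bases before the start. Counted on both strands, GGAAGT occurred in 6 of the 8 windows of these 7 genes (Ms4a7 has 2), against 23.8% of all 32851 windows. GAGGAA occurred in 3 of the 8 windows, against 28.3% of all windows; the motifs overlap where GAGGAAGT occurs, which none of these windows holds. TTCNNNGAA, the STAT element, occurred in 0 of the 8 (8.30% of all windows), TGANTCA, the AP-1 site, in 2 (7.81%) and TTGCNNAA, a C/EBP site, in 1 (10.8%). The motifs were chosen with the results known, and a match in letters is a description of the window only.

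The members differed in level along the same order in all groups at the top. On the authors' FPKM scale, which divides by gene length, Ms4a4d came first with 2.60 ± 0.322 in AdipoRonPEG5, 2.90 ± 0.677 in AdipoRon and 1.49 ± 0.665 FPKM in vehicle livers (SD, n = 3). Ms4a6d, a macrophage member of the Ms4a6 group, was next at 2.31 ± 0.424 FPKM in AdipoRonPEG5, 2.02 ± 0.899 FPKM in AdipoRon and 0.666 ± 0.0521 FPKM in vehicle livers. The ranges of Ms4a4d and Ms4a6d overlapped in both compound groups and stood apart in vehicle. Ms4a6c followed, at 1.11 ± 0.233 FPKM in AdipoRonPEG5, 0.558 ± 0.242 FPKM in AdipoRon and 0.239 ± 0.0674 FPKM in vehicle livers. Below it each gene overlapped the next in the order in AdipoRon and vehicle livers, while Ms4a6b and Ms4a7 lay above Ms4a4b in every library of both groups. In AdipoRonPEG5 livers Ms4a4a (0.539 ± 0.0377 FPKM) stood below Ms4a6c and above Ms4a4c (0.431 ± 0.0986 FPKM), which overlapped Ms4a6b (0.427 ± 0.0999 FPKM). Ms4a7 (0.258 ± 0.0977 FPKM) and Ms4a4b (0.165 ± 0.046 FPKM) came last there and overlapped. The gene lengths that these FPKM imply ran from 836 to 4286 bases and equalled the longest GENCODE M21 transcript for 7 of the 8 members, with Ms4a4b shorter.

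**Figure D1:**
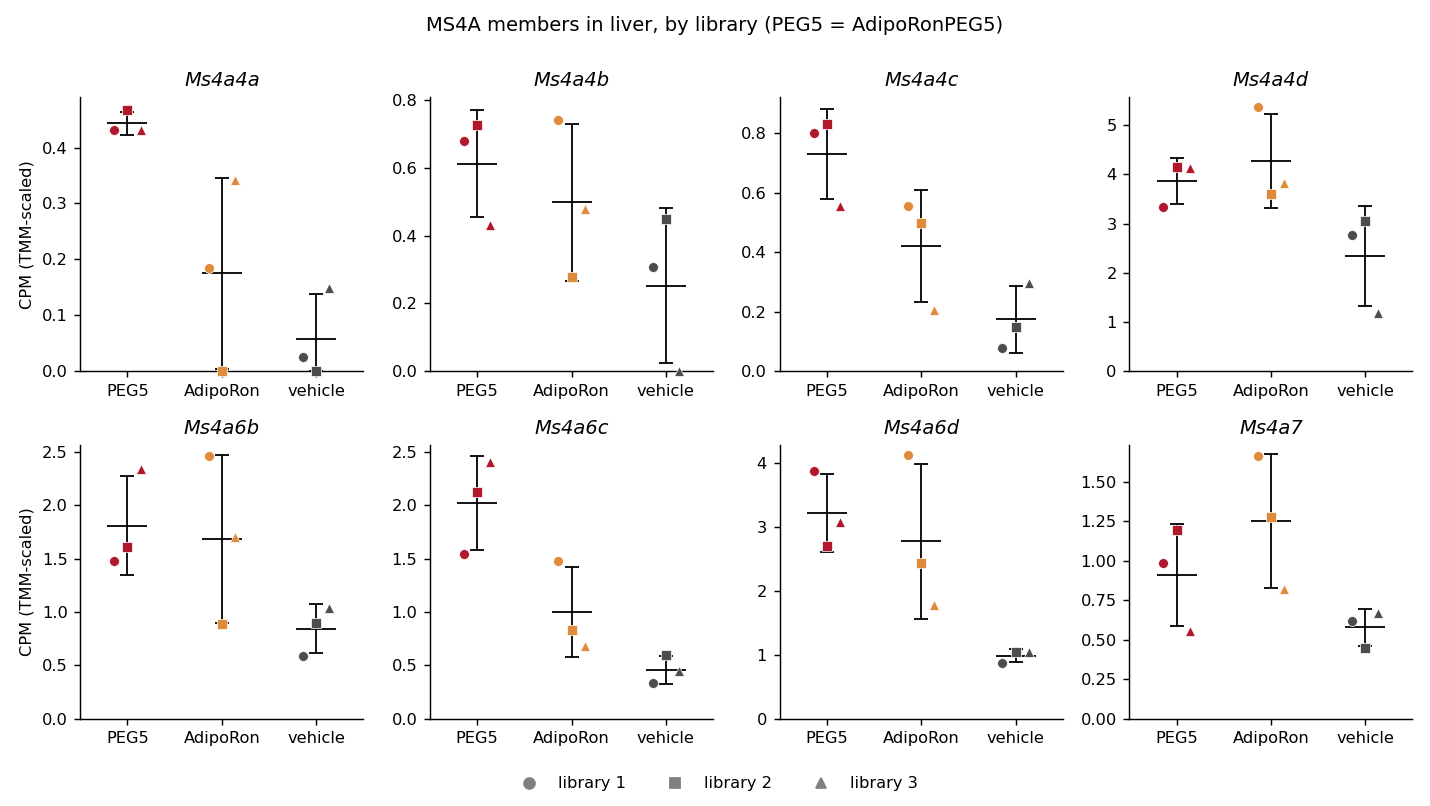
Level of each MS4A member in TMM-scaled CPM (linear axes from 0) in AdipoRonPEG5, AdipoRon and vehicle livers. Each point is 1 library, its shape gives the library number, and bars are the mean ± SD of 3 libraries, with the lower bar ended at 0. All AdipoRonPEG5 libraries lie above all vehicle libraries for 6 members, all except Ms4a4b and Ms4a7. Among tested genes this holds for 4 of 6 members and 18.2% of all genes.

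AdipoRonPEG5 against vehicle asked what the PEGylated compound does. Ms4a6c and Ms4a6d rose, and no member fell. The log2 fold change was above 0 for all 6 tested members, and 4 of them did not pass. Of all 13151 genes tested, 17.2% passed in either direction, 9.55% as higher and 7.63% as lower (edgeR quasi-likelihood test, Benjamini-Hochberg adjusted p under 0.05 over all genes tested). The median log2 fold change of the 6 tested members was 1.18, beside -0.0013 over all genes. The median is no support by itself, because Ms4a4b passed the filter on low counts only through 2 AdipoRonPEG5 libraries and 1 AdipoRon library, and Ms4a7 and Ms4a6c through no vehicle library.

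Ms4a6c, a transcript known from mouse monocytes, was at 1.54, 2.13 and 2.40 CPM in AdipoRonPEG5 livers (25, 41 and 39 counts), against 0.334, 0.597 and 0.446 CPM in vehicle livers (13, 8 and 6 counts). The groups did not overlap: the lowest AdipoRonPEG5 library was above the highest vehicle library, as for 18.2% of all genes tested. Its log2 fold change was 2.23 ± 0.37 (SE, interval at 95% 1.40 to 3.05, edgeR Benjamini-Hochberg adjusted p = 0.00303), the largest of the 6 tested members. The call held under all 19 alternatives, with log2 fold changes between 1.94 and 2.43.

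Ms4a6d was at 3.88, 2.70 and 3.08 CPM in AdipoRonPEG5 livers (63, 52 and 50 counts), against 0.873, 1.05 and 1.04 CPM in vehicle livers (34, 14 and 14 counts). The vehicle libraries lay close together and well below all AdipoRonPEG5 libraries. Its log2 fold change was 1.73 ± 0.32 (SE, interval at 95% 1.02 to 2.44, edgeR Benjamini-Hochberg adjusted p = 0.00518). The call held under all 19 alternatives, with values between 1.57 and 1.84.

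Ms4a6b was at 1.48, 1.61 and 2.34 CPM in AdipoRonPEG5 livers (24, 31 and 38 counts), against 0.591, 0.896 and 1.04 CPM in vehicle livers (23, 12 and 14 counts). These groups did not overlap either, but the log2 fold change of 1.18 ± 0.40 (SE) did not pass (edgeR Benjamini-Hochberg adjusted p = 0.0662). It passed under 6 of 19 alternatives, among them DESeq2 (adjusted p = 0.0494) and leaving out AdipoRon 1 (0.0474) or AdipoRon 2 (0.0374), and adjusted p ran from 0.0374 to 0.238 over all 19.

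Ms4a4d, the most abundant member, was at 3.33, 4.15 and 4.13 CPM in AdipoRonPEG5 livers, against 2.77, 3.06 and 1.19 CPM in vehicle livers. Vehicle 3 was the low library, with 16 counts. The log2 fold change of Ms4a4d was 0.69 ± 0.29 (SE, edgeR Benjamini-Hochberg adjusted p = 0.131), and 0.42 without vehicle 3. Ms4a7, a macrophage member, was at 0.986, 1.19 and 0.554 CPM in AdipoRonPEG5 livers, against 0.616, 0.448 and 0.669 CPM in vehicle livers. The Ms4a7 groups overlapped, and its log2 fold change of 0.64 ± 0.39 (SE, edgeR Benjamini-Hochberg adjusted p = 0.29) did not pass. Ms4a4b, which in mouse T cells acts on proliferation, had 11, 14 and 7 counts in AdipoRonPEG5 livers, against 12, 6 and 0 counts in vehicle livers. It had a log2 fold change of 1.18 ± 0.61 (SE, edgeR Benjamini-Hochberg adjusted p = 0.218), and the 0 of vehicle 3 allows up to 0.207 CPM.

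Ms4a4a and Ms4a4c were too scarce for the filter on low counts and were not tested in the fit. Ms4a4a, the dectin-1 partner, had 7, 9 and 7 counts in AdipoRonPEG5 livers, against 1, 0 and 2 counts in vehicle livers. Per total counts this is a ratio of 10.2 (95% interval 3.09 to 53.3, exact, counting error only). Ms4a4c had 13, 16 and 9 counts in AdipoRonPEG5 livers, against 3, 2 and 4 counts in vehicle livers, a ratio of 5.64 (2.68 to 13.3). Both members were higher in CPM in every AdipoRonPEG5 library than in every vehicle library, as were 18.2% of the genes that were tested. With no filter Ms4a4a had a log2 fold change of 3.04 ± 0.97 (SE, edgeR Benjamini-Hochberg adjusted p = 0.0455) and Ms4a4c one of 2.27 ± 0.61 (adjusted p = 0.017), and both then passed. Vehicle 1 holds most of the pooled vehicle depth: without it the ratio was 6.43 (1.59 to 56.2) for Ms4a4a and 3.54 (1.49 to 10.2) for Ms4a4c, and Ms4a4c was tested and did not pass (1.67 ± 0.59, edgeR adjusted p = 0.0946). The intervals do not cover the spread between libraries.

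AdipoRon against vehicle asked the same of the parent compound. Ms4a6d rose, 0 members fell, and the other 5 tested members did not pass, where 5.2% of all genes passed in either direction, 3.8% as higher and 1.4% as lower. The vehicle libraries are shared with the comparison above, so that the comparisons are not independent. Ms4a6d was at 4.13, 2.44 and 1.77 CPM in AdipoRon livers (67, 44 and 26 counts), against 0.873, 1.05 and 1.04 CPM in vehicle livers. The groups did not overlap, and AdipoRon 1 was the high library. Its log2 fold change was 1.53 ± 0.33 (SE, interval at 95% 0.81 to 2.25, edgeR Benjamini-Hochberg adjusted p = 0.025). The call ended without vehicle 1, vehicle 2, AdipoRon 1 or AdipoRon 2, or with only the 2 groups compared (adjusted p from 0.0532 to 0.0929); the value was 1.13 without AdipoRon 1.

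Ms4a6c was at 1.48, 0.832 and 0.683 CPM in AdipoRon livers (24, 15 and 10 counts), against 0.334, 0.597 and 0.446 CPM in vehicle livers. The groups did not overlap, but the log2 fold change of 1.21 ± 0.41 (SE, edgeR Benjamini-Hochberg adjusted p = 0.108) did not pass. Ms4a7 was at 1.66, 1.28 and 0.819 CPM in AdipoRon livers, also above all vehicle libraries (0.448 to 0.669 CPM), with a log2 fold change of 1.10 ± 0.38 (SE, edgeR Benjamini-Hochberg adjusted p = 0.12). Ms4a4d was at 5.36, 3.61 and 3.82 CPM in AdipoRon livers, again above all vehicle libraries (1.19 to 3.06 CPM), with a log2 fold change of 0.83 ± 0.29 (SE, edgeR Benjamini-Hochberg adjusted p = 0.127). Ms4a6d, Ms4a6c, Ms4a7 and Ms4a4d thus lay above vehicle in every AdipoRon library, as did 14.4% of all genes tested, and 1 of the 4 passed the test. Ms4a6b at 2.47, 0.888 and 1.71 CPM and Ms4a4b at 0.74, 0.278 and 0.478 CPM in AdipoRon livers overlapped vehicle. Their log2 fold changes were 1.07 ± 0.41 (SE, edgeR Benjamini-Hochberg adjusted p = 0.152) and 0.87 ± 0.64 (SE, adjusted p = 0.474). Of the untested members, Ms4a4a had 3, 0 and 5 counts and Ms4a4c had 9, 9 and 3 counts in AdipoRon livers. Per total counts their ratios to vehicle were 3.81 (0.914 to 22.3) and 3.33 (1.46 to 8.26), or 2.39 (0.477 to 23.1) and 2.09 (0.817 to 6.33) without vehicle 1.

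**Figure D2:**
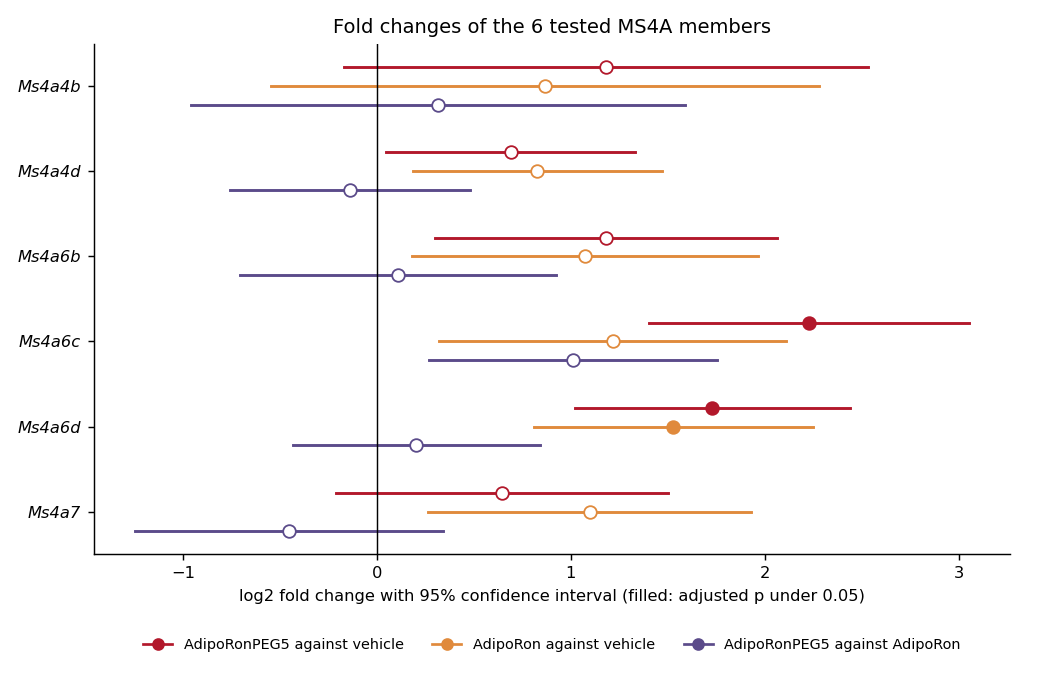
Log2 fold changes (x axis) of the 6 tested MS4A members with 95% confidence intervals as lines, with AdipoRonPEG5 over vehicle at the top of each gene, AdipoRon over vehicle in the middle and AdipoRonPEG5 over AdipoRon at the bottom. Filled points passed at an adjusted p under 0.05, which are Ms4a6c and Ms4a6d with AdipoRonPEG5 (2.23 and 1.73) and Ms4a6d with AdipoRon (1.53).

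AdipoRonPEG5 and its parent compound, which differ by the added polyethylene glycol chain, were compared directly at the dose that the labels give for both. Of the 6 tested members 0 passed by the edgeR quasi-likelihood test, where 5.39% of all genes passed, 2.68% as higher and 2.71% as lower; 0 passed by DESeq2 and 0 by limma-voom, and 1, Ms4a6c, was under an unadjusted p of 0.05. The AdipoRonPEG5 libraries of Ms4a6c (1.54 to 2.40 CPM) lay above those of AdipoRon (0.683 to 1.48 CPM), as did those of 13.8% of all genes tested, with AdipoRon 1 nearest to them. Its log2 difference was 1.01 ± 0.34 (SE, interval at 95% 0.27 to 1.75, edgeR Benjamini-Hochberg adjusted p = 0.11), and the range over 19 alternatives was 0.82 to 1.40 (adjusted p from 0.0685 to 0.27). Ms4a6d differed by 0.20 with an interval of -0.44 to 0.84, Ms4a6b by 0.11 (-0.71 to 0.92), Ms4a4d by -0.14 (-0.76 to 0.48), Ms4a4b by 0.32 (-0.96 to 1.59) and Ms4a7 by -0.45 (-1.25 to 0.34) on the log2 scale. The directions of Ms4a6d, Ms4a6b and Ms4a4d turned when single libraries were left out. None of these intervals shows that the compounds act alike; that of Ms4a4b allows differences of more than 1 log2 unit upward. Ms4a4a had 23 counts in all with AdipoRonPEG5 and 8 with AdipoRon, a ratio of 2.69 (1.16 to 6.95, exact, counting error only), and Ms4a4c had 38 and 21 (1.69, 0.968 to 3.04).

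Macrophage markers moved with the members in both compound groups. Of 16 Kupffer cell markers, 13 rose with AdipoRonPEG5 and 12 with AdipoRon, and 0 fell in either comparison. Of all genes tested, 9.55% passed as higher with AdipoRonPEG5 and 3.8% with AdipoRon. Over the alternatives, the rises among these markers numbered 13 to 14 with AdipoRonPEG5 and 8 to 14 with AdipoRon. The log2 fold changes were 4.26 ± 0.31 with AdipoRonPEG5 and 4.05 ± 0.31 with AdipoRon for the scavenger receptor Marco, and 1.98 ± 0.19 and 1.77 ± 0.19 for the secreted scavenger protein Cd5l. The complement gene C1qc was at 1.65 ± 0.18 and 1.38 ± 0.18 (SE, all 6 with an edgeR Benjamini-Hochberg adjusted p under 0.05). The medians of the Kupffer list were 1.57 and 1.23, against 1.18 and 1.09 for the MS4A members. The summed Kupffer markers ran from 1073 to 1089 CPM in AdipoRonPEG5, 774 to 1157 CPM in AdipoRon and 459 to 547 CPM in vehicle livers, and none of the 16 was at 0 in all libraries. Between the compounds 0 of the 16 passed by edgeR, 0 by DESeq2 and 0 by limma-voom, with 1 under an unadjusted p of 0.05.

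Of 16 tested markers of monocytes and recruited macrophages, 10 rose with AdipoRonPEG5 and 4 with AdipoRon. The difference in these counts was not itself tested, but 5 of the 16 were higher with AdipoRonPEG5 than with AdipoRon by the direct comparison, a count that was 2 without AdipoRon 3 and 3 without AdipoRonPEG5 1 or AdipoRonPEG5 2. With AdipoRonPEG5 the galectin Lgals3 was at 2.68 ± 0.20, the myeloid receptor Cd300e at 4.09 ± 0.36 and lysozyme Lyz2 at 1.93 ± 0.21 (log2 fold changes ± SE, edgeR Benjamini-Hochberg adjusted p under 0.05 for each). The summed level of this list ran from 1426 to 1678 CPM in AdipoRonPEG5, 1594 to 1731 CPM in AdipoRon and 1433 to 1926 CPM in vehicle livers, and so overlapped between groups. Fn1 alone averaged 1350 CPM in AdipoRonPEG5, 1401 in AdipoRon and 1417 in vehicle livers, so this sum mostly follows 1 gene. Summed FPKM ran from 305.5 to 323.1 in AdipoRonPEG5, 290.1 to 311.3 in AdipoRon and 233.7 to 286.1 in vehicle livers. On that scale both compound groups lay above vehicle.

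Lymphocyte markers, of cells in which Ms4a4b and Ms4a6b are also known, moved too. Of 8 tested T and NK cell markers, 4 rose and 1 fell with AdipoRonPEG5, with the chemokine Ccl5 at 2.25 ± 0.33, the granzyme Gzma at 2.45 ± 0.47 and the kinase Lck at 1.48 ± 0.35. With AdipoRon 1 rose and 0 fell. Their summed level ran from 9.80 to 10.7 CPM in AdipoRonPEG5, 6.96 to 12.5 CPM in AdipoRon and 4.08 to 5.95 CPM in vehicle livers. Of 4 tested B cell markers, 3 rose with AdipoRonPEG5, among them the receptor chains Cd79b (2.72 ± 0.44) and Cd79a (2.38 ± 0.41) and the immunoglobulin gene Ighm (1.14 ± 0.25). Where a mean of 1 CPM was required, 1 B cell marker was tested, and it rose. With AdipoRon 1 B cell marker rose, Cd79b, a call that ended when any single library was left out. The T and NK cell rises with AdipoRonPEG5 numbered 2 without vehicle 1, vehicle 2 or AdipoRonPEG5 3, and the fall, that of Cd4, ended under most single-library omissions. The part of any of these cells in the members' differences was not tested.

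Of 9 endothelial markers 1 rose with AdipoRonPEG5 against vehicle, the cadherin Cdh5 (0.68 ± 0.18). Cdh5 was not called without vehicle 2, vehicle 3, AdipoRonPEG5 2 or AdipoRonPEG5 3. Of 8 stellate cell markers 0 passed by edgeR, 1 by DESeq2 and 2 by limma-voom, with 5 under an unadjusted p of 0.05; the collagen genes Col3a1 (0.81 ± 0.26) and Col1a1 (1.20 ± 0.41) had the lowest p. Of 3 dendritic cell markers 0 passed by edgeR, by DESeq2 or by limma-voom, with 0 under an unadjusted p of 0.05, and the lowest p were those of Siglech (0.37 ± 0.33) and Clec9a (0.097 ± 0.24). Of 9 granulocyte and mast cell markers 1 was tested, the transcription factor Gata2, at -0.64 ± 0.36 (0 under an unadjusted p of 0.05, 0 by DESeq2 and limma-voom). Of 9 hepatocyte markers 0 rose and 4 fell, led by the aminotransferase Tat (-1.92 ± 0.35), the apolipoprotein Apoa1 (-0.65 ± 0.15) and Serpina1c (-0.66 ± 0.16), with 2 falls without vehicle 2, AdipoRonPEG5 1 or AdipoRonPEG5 2. All values ± SE in this paragraph are log2 fold changes from the edgeR fit, and these and the counts above are of AdipoRonPEG5 against vehicle. With AdipoRon against vehicle, 0 markers of these lists passed by edgeR and 0 by limma-voom. DESeq2 called 1 endothelial and 2 hepatocyte markers there. Under an unadjusted p of 0.05 were 1 endothelial, 1 stellate cell and 2 hepatocyte markers.

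**Figure D3:**
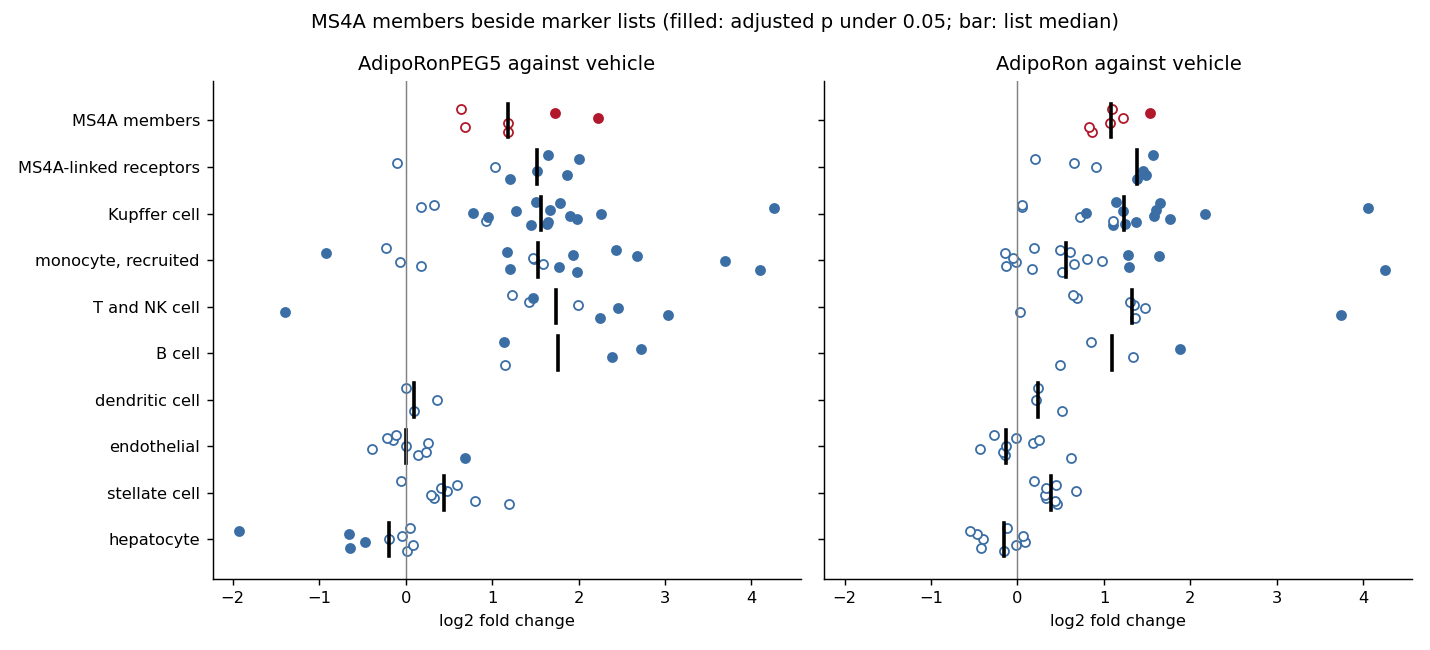
Log2 fold changes (x axis) of the tested MS4A members (red) and of the tested genes of 9 other lists (blue), with AdipoRonPEG5 against vehicle on the left and AdipoRon against vehicle on the right. Each point is a gene, filled where its adjusted p was under 0.05, and bars are list medians, which for the MS4A members are 1.18 and 1.09 and for the Kupffer markers 1.57 and 1.23.

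The level of the family relative to the Kupffer markers depended on which markers were summed. Nr1h3, a lipid-sensing nuclear receptor, and the iron exporter Slc40a1 passed in none of the 3 comparisons, and they made up 26.5 ± 1.56% of the summed markers in AdipoRonPEG5, 27.8 ± 5.62% in AdipoRon and 48.5 ± 4.09% in vehicle livers (SD, n = 3). Cd163 also passed in none of the 3 and was kept among the 14 others below. Against all 16 markers, the 8 members summed to 12.6 ± 0.385 CPM per 1000 CPM of markers in AdipoRonPEG5, 12.9 ± 1.41 in AdipoRon and 11.6 ± 2.82 in vehicle livers. Against the 14 others, a choice made after seeing the data, they summed to 17.1 ± 0.877 in AdipoRonPEG5, 17.8 ± 1.59 in AdipoRon and 22.8 ± 6.90 in vehicle livers. The groups overlapped on both scales, and vehicle was lowest in mean on the one and highest on the other. Ms4a6c was at 1.87 ± 0.401 in AdipoRonPEG5, 1.05 ± 0.207 in AdipoRon and 0.932 ± 0.327 in vehicle livers against 16 markers, where every AdipoRonPEG5 library lay above every other library. Against 14 markers it was at 2.55 ± 0.588 in AdipoRonPEG5, 1.44 ± 0.174 in AdipoRon and 1.83 ± 0.715 in vehicle livers, where AdipoRonPEG5 lay above AdipoRon and overlapped vehicle. Ms4a6d was at 2.98 ± 0.556 in AdipoRonPEG5, 2.91 ± 0.639 in AdipoRon and 1.98 ± 0.261 in vehicle livers against 16 markers, with both compound groups above vehicle. Against 14 markers it was at 4.04 ± 0.666 in AdipoRonPEG5, 3.999 ± 0.571 in AdipoRon and 3.88 ± 0.67 in vehicle livers, and all groups overlapped. Against 14 markers Ms4a7 was at 1.15 ± 0.422 in AdipoRonPEG5, 1.84 ± 0.247 in AdipoRon and 2.24 ± 0.284 in vehicle livers. Its AdipoRonPEG5 libraries lay below all others. For Ms4a4d they lay below AdipoRon and overlapped vehicle. For Ms4a4a, on few counts, they lay above vehicle and overlapped AdipoRon. Ms4a4b, Ms4a4c and Ms4a6b overlapped between all groups on this scale. These ratios are descriptions with no test.

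The share of Ms4a6c within the family was also higher in every AdipoRonPEG5 library than in any other. Ms4a6c took 14.8 ± 2.81% of the members' summed CPM in AdipoRonPEG5 livers, 8.11 ± 1.04% in AdipoRon and 8.06 ± 1.82% in vehicle livers (SD, n = 3). Ms4a4d took 28.4 ± 2.61% in AdipoRonPEG5, 35.98 ± 3.33% in AdipoRon and 40.1 ± 13.5% in vehicle livers. Ms4a6d took 23.8 ± 5.21% in AdipoRonPEG5, 22.6 ± 3.94% in AdipoRon and 17.6 ± 3.39% in vehicle livers. CPM is not divided by length, so that these shares compare groups and not genes.

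Among receptors and adaptors that MS4A proteins are linked to, 5 of 7 tested genes rose with AdipoRonPEG5 and 4 with AdipoRon, and 0 fell. The signalling adaptors Fcer1g (1.86 ± 0.18 with AdipoRonPEG5, 1.48 ± 0.19 with AdipoRon) and Tyrobp (1.65 ± 0.18, 1.57 ± 0.18), the kinase Syk (1.52 ± 0.19, 1.45 ± 0.19) and the lipopolysaccharide co-receptor Cd14 (1.20 ± 0.31, 1.38 ± 0.31) passed in both comparisons. These are log2 fold changes ± SE with an edgeR Benjamini-Hochberg adjusted p under 0.05. Trem2, the lipid receptor that signals through Tyrobp, rose with AdipoRonPEG5 (2.004 ± 0.54, adjusted p = 0.0278) and was at 0.20 ± 0.63 with AdipoRon (adjusted p = 0.889). Trem2 averaged 2.39 ± 0.793 CPM in AdipoRonPEG5, 0.699 ± 0.40 CPM in AdipoRon and 0.593 ± 0.52 CPM in vehicle livers (SD, n = 3), and the direct difference between the compounds was 1.80 ± 0.54 (SE, edgeR adjusted p = 0.0831). The toll-like receptor Tlr4 was at 1.03 ± 0.33 with AdipoRonPEG5 (edgeR adjusted p = 0.0573). Tnfrsf18, a receptor found on T cells but not their antigen receptor, was at -0.098 ± 0.46 with AdipoRonPEG5 (edgeR adjusted p = 0.915). Without vehicle 1, vehicle 2 or AdipoRonPEG5 2, 3 of the 7 rose with AdipoRonPEG5. The dectin-1 gene was not analysed here, because several entries of the table share its name.

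Of 10 tested transcription factors of macrophages, 4 rose with AdipoRonPEG5 and 3 with AdipoRon. Spi1, which encodes PU.1, was at 1.76 ± 0.19 with AdipoRonPEG5 and 1.35 ± 0.20 with AdipoRon, and Spic, an ETS factor of iron-handling macrophages, at 2.01 ± 0.29 and 2.60 ± 0.28. Irf8, a factor of monocyte development, was at 1.18 ± 0.21 and 0.88 ± 0.21 (log2 fold changes ± SE, edgeR Benjamini-Hochberg adjusted p under 0.05 for each).

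The profiles most like each member were sought over the 9 libraries, as the root-mean-square distance of centred log2 CPM among 12025 genes with a mean of at least 1 CPM. For Ms4a6d these were Apobec3, a cytidine deaminase against retroviruses (0.126), the adenylate cyclase Adcy7 (0.167) and Slc11a1, a metal transporter of macrophage phagosomes (0.172), where the median gene was at 0.787. For Ms4a6c they were the thromboxane synthase Tbxas1 (0.272), the aldehyde dehydrogenase Aldh3b1 (0.289) and the cathepsin Ctss (0.289), with a median of 0.869. The Ms4a6b profile was nearest to Was, an actin regulator of blood cells (0.228), Arhgap9 (0.257) and Fgd3 (0.285), with a median of 0.631. That of Ms4a4d was nearest to Tlr4 (0.186), the growth factor binding protein Igfbp3 (0.187) and Art4 (0.192), with a median of 0.586. The other members had a mean under 1 CPM. Between members, Ms4a6c and Ms4a6d were the closest pair (0.408) and Ms4a4b and Ms4a7 the farthest (0.827). Counting noise adds to every distance of these rare transcripts.

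The members lie together on chromosome 19 in the RefSeq order, and none of the tested genes around them passed the edgeR test in the 3 comparisons. Of 11 protein-coding genes within or next to the MS4A cluster that are not MS4A genes, 4 were tested, and 0 passed by edgeR with AdipoRonPEG5, with 0 under an unadjusted p of 0.05, 0 by DESeq2 and 0 by limma-voom. Their log2 fold changes were 0.093 for Tmem109, -0.14 for Prpf19, -0.071 for Ccdc86 and 0.033 for Mrpl16. Ccdc86 was under an unadjusted edgeR p of 0.05 with AdipoRon against vehicle (log2 fold change -0.38) and between the compounds (0.31). Zp1 and the 3 Oosp genes had 0 counts. Within the family, 7 of 13 further genes had 0 counts in all libraries, among them Ms4a3 of granulocyte precursors. Ms4a1 (CD20) had 8 counts in all with AdipoRonPEG5, 13 with AdipoRon and 4 with vehicle, and Ms4a2, the mast cell IgE receptor chain, had 1 count in all. Ms4a8a was tested and stood at 0.89 ± 0.0924 CPM in AdipoRonPEG5, 0.778 ± 0.0747 CPM in AdipoRon and 0.516 ± 0.23 CPM in vehicle livers (SD, n = 3). Its log2 fold change of 0.94 ± 0.38 with AdipoRonPEG5 (SE, edgeR Benjamini-Hochberg adjusted p = 0.117) did not pass. Members share short stretches of sequence: 7.73% of the 50-base words of Ms4a4c transcripts also occur in Ms4a4b, 5.85% of those of Ms4a6c and 2.31% of those of Ms4a6d in Ms4a6b, and none of those of Ms4a4a or Ms4a7 in another member. The labels do not state how reads that match several genes were treated.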

How the data were processed

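Raw read counts per gene and FPKM were deposited by the authors in 1 table, with 1 column of each per library. Per the submitters' processing notes, STAR 2.5, TopHat, HTSeq 0.6.1, DESeq2 and edgeR were used, with no role or order; not given in the sources used here are build, annotation, strand setting and filters. The deposited FPKM served to compare levels between genes, and the counts served every test. Each column name equals 1 sample's description. Of 141 list symbols, 137 were matched.

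All 9 libraries entered 1 edgeR 4.0.16 quasi-likelihood fit in R 4.3.3 with 3 group means (TMM, filterByExpr with a minimum count of 10, robust set to FALSE), which kept 13151 genes. Benjamini-Hochberg adjustment ran over all genes tested, at 0.05. The SE is the fold change divided by the root of F. CPM are TMM-scaled, log2 CPM have a prior count of 2, and count ratios have exact (Clopper-Pearson) intervals at 95%, for counting error only. Alternatives were RLE, total-count scaling, no filter, DESeq2 1.42.0, limma-voom (limma 3.58.1), a filter at a mean of 1 CPM, only the 2 groups compared, a replicate block, vehicle 1 thinned to 15795230 reads, vehicle 3 and AdipoRonPEG5 1 left out, and each library omitted in turn; ratios without vehicle 1 and without Nr1h3 and Slc40a1 were added after seeing the data. The scripts were tested on simulated counts.

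Named genes were all members, every tested gene of the family and of the linked receptors, the 3 nearest profiles of members at a mean of 1 CPM or more, the called genes with the 3 lowest p of each other list (2 lowest p where none was called) and the neighbours in the cluster; others were chosen after their values were seen. A listed gene is not reported here. The members and lists were chosen with earlier results of these data known.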

Additional observations from a re-analysis of the deposited data

How the results depend on the processing

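Depth limits what can be said of the members: 2 of 8 were not tested and the other 6 rest on 74 to 574 counts over all libraries. Of 334 values of single members under the alternatives, 319 kept their direction and their side of the threshold, 6 passed anew (Ms4a6b with AdipoRonPEG5), 5 lost the call (Ms4a6d with AdipoRon) and 4 turned in direction. The turns were all between the compounds with 1 library left out: Ms4a4d ran from -0.24 to 0.063, Ms4a6b from -0.21 to 0.50, with -0.11 without AdipoRonPEG5 3, and Ms4a6d from -0.027 to 0.60 on the log2 scale.

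With no filter 5 members were called with AdipoRonPEG5 against vehicle, as Ms4a4a, Ms4a4c and Ms4a6b then passed, and with only the 2 groups compared 0 members were called with AdipoRon. With 1 library left out, 2 to 4 members were called with AdipoRonPEG5 and 0 to 1 with AdipoRon. Called genes over the whole table then ran from 1337 to 2334 for AdipoRonPEG5 against vehicle (2260 with all libraries, lowest without vehicle 2), 250 to 624 for AdipoRon against vehicle (684, lowest without vehicle 2) and 233 to 1032 between the compounds (709, lowest without AdipoRonPEG5 2). With only the 2 groups compared AdipoRon gave 325.

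The replicate numbers of the labels gave no sign of pairing between libraries. Deviations from the group means correlated at -0.268 to 0.0772 in 9 same-numbered pairs, 0 of them above 0.1. Among 18 best matches 3 had the same number. Pairs with different numbers ran from -0.299 to 0.316, so with 3 libraries a group this check cannot show that the libraries were unpaired. With the numbers as a replicate block, 1763 genes were called with AdipoRonPEG5 against vehicle, where 2260 were called without it. The block gave 444 called genes with AdipoRon against vehicle and 338 between the compounds. The count of called members was 2, 1 and 0 in the 3 comparisons, as without the block. The cause of these changes was not tested.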

Other observations

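Tmem176a and Tmem176b, relatives of the MS4A family with the same 4-membrane pattern, were far more abundant than any member. Tmem176b was at 280.5, 288 and 277 CPM in AdipoRonPEG5, 166, 184 and 170 CPM in AdipoRon, and 169, 139 and 354 CPM in vehicle livers. Tmem176a was at 206, 197 and 194 CPM in AdipoRonPEG5, 117, 141 and 127 CPM in AdipoRon, and 133, 120 and 285 CPM in vehicle livers. Vehicle 3, the library with the highest Saa1 (4955 CPM), was the highest of all 9 libraries in both genes, and the other vehicle libraries lay below every AdipoRonPEG5 library. Both genes were higher in every AdipoRonPEG5 library than in every AdipoRon library, as were 13.8% of all genes tested. Their log2 differences of 0.70 ± 0.27 for Tmem176b and 0.64 ± 0.26 for Tmem176a (SE, edgeR Benjamini-Hochberg adjusted p = 0.153 and 0.182) did not pass. With vehicle 3 and AdipoRonPEG5 1 left out, 2 of the 3 tested genes of the wider family were called in that comparison and 2 in AdipoRonPEG5 against vehicle. AdipoRon against vehicle gave 0 of 3 by edgeR, with 0 under an unadjusted p of 0.05 and 0 by DESeq2 or limma-voom.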
